A study of Mus musculus with 18 samples.

Results

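Transcripts of 9 G protein-coupled receptors that act on pain signalling were followed in mouse sensory neurons cultured from dorsal root ganglia (DRG), which lie beside the spinal cord. The receptors were taken by symbol from a table of 17198 genes: the opioid receptors Oprm1, Oprd1 and Oprl1, the cannabinoid receptor Cnr1, the neuropeptide Y receptors Npy1r and Npy2r, the galanin receptor Galr1, the gastrin-releasing peptide receptor Grpr and the RFamide receptor Qrfpr. All 9 symbols were found, and all 9 passed the filter on low values. The 9 were chosen by their role in pain signalling and with the measured expression levels of these cultures, by genotype and time, in view. Every difference between groups in their expression therefore counts as used in the choice, and these differences are given as a description, without p-values.

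The 18 cultures came from wild-type mice (WT) and from mice heterozygous for the tm1a allele of Dynlrb1 (HET), at 12, 24 or 48 h in culture, with 3 biological replicates in each of 6 groups. The product of Dynlrb1 is a roadblock-type subunit of cytoplasmic dynein, which in axons carries cargo back to the soma. Alleles of the tm1a design are knockout-first insertions, present in all cells and not limited to neurons. No drug or other agent is named in the labels, nor are strain, sex or age. Nothing in the labels says that non-neuronal cells were removed.

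These receptors sit in the membrane of the sensory neuron and signal through heterotrimeric G proteins. The mu, delta and nociceptin receptors, CB1 and the Y1 and Y2 receptors mostly couple to inhibitory G proteins, which lower cyclic AMP, close calcium channels and reduce transmitter release. The galanin receptor GALR1 couples in the same way, whereas the bombesin-family receptor GRPR and the RFamide receptor QRFPR can couple to Gq and phospholipase C. GRPR is best known for itch transmission by neurons of the spinal dorsal horn.

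Qrfpr and Grpr, the 2 of the 9 with the largest log2 differences between genotypes at 48 h, are shown with the sequence before their start. Both are given 5′ to 3′ on the gene's strand, from RefSeq on GRCm38.p6, with every CCAAT box letter match on either strand in capitals. The Qrfpr window spans 212 bases at chr3:36222314-36222525 on the minus strand. It was cut from 250 bases to end just before the GENCODE M21 gene model, whose exon the rest touched. The Grpr window spans 250 bases at chrX:163549737-163549986 on the minus strand. It ends just before the RefSeq start, which lies upstream of the start of its GENCODE M21 gene model.
Qrfpr: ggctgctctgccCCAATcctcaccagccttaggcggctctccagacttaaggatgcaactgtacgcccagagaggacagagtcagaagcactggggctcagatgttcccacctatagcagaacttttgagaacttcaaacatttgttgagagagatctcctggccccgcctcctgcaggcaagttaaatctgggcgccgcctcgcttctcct
Grpr: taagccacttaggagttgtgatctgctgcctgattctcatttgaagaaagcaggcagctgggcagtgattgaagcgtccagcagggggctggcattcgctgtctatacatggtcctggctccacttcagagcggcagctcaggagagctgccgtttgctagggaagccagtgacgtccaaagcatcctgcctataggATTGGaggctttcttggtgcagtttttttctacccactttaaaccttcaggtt

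Each window held 1 CCAAT match on either strand, as did 30.6% of the 27025 mouse promoters cut to the Qrfpr length and 34.5% of those at the Grpr length, at 1 or more matches. The E-box letters CANNTG occurred 3 times before Qrfpr and 2 times before Grpr, and 60.9% and 66.0% of promoters at those lengths held them. The cyclic AMP response letters TGACGTCA, the AP-1 letters TGANTCA, the GC box GGGCGG and the letters TATAAA were searched on both strands and had 0 matches in either window. Those letters occurred in 1.07%, 6.04%, 27.2% and 10.01% of promoters at the Qrfpr length, and in 1.62%, 6.87%, 32.9% and 13.0% at the Grpr length. A match is a match of letters and no evidence of a bound factor, and the lack of one says nothing of the factor.

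On GRCm38, the build named mm10 in the submitters' processing notes, the GENCODE M21 gene models place Oprm1 at chr10:6758506-7038198 and Oprd1 at chr4:132110726-132144486. Oprl1 lies at chr2:181715016-181720985, Cnr1 at chr4:33924593-33948831, Npy1r at chr8:66697192-66706792 and Npy2r at chr3:82538383-82548084. Galr1 lies at chr18:82392380-82406777, Grpr at chrX:163513904-163549677 and Qrfpr at chr3:36179424-36222313. The Oprm1 model overlaps Ipcef1 on the opposite strand, and the Qrfpr model overlaps an antisense gene, Gm43255, and a pseudogene, Gm18893. Whether the counting used strand is not given in the sources used here, so reads of these overlapping genes cannot be told apart from those of Oprm1 and Qrfpr.

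The authors' normalized counts had totals per sample between 41509705 and 41509874, which reflect scaling, so the sequencing depth of each sample is unknown. Dynlrb1, the targeted gene, lay between 5229 and 6674 normalized counts in the 9 WT cultures and between 2716 and 4087 in the 9 HET cultures, without overlap. Its HET mean was 58.1%, 55.4% and 55.6% of the WT mean at 12, 24 and 48 h. All 10 sensory neuron markers examined were measured in every culture, with a summed level of 5149 to 6754 FPKM (the authors' expression value per transcript length and library), and markers of Schwann cells and satellite glia summed to 243 to 849 FPKM. One library stood apart: HET 48 h replicate 3 correlated across genes more closely with the HET 24 h mean (r = 0.991) and the HET 12 h mean (r = 0.990) than with the other 2 cultures of its own group (r = 0.984). Log2 differences of the receptors that rest on HET 48 h cultures are therefore also given without that library. For the ligands this is done for HET changes from 12 to 48 h and for 48 h genotype differences. Differences of other genes are given without it where their call changes or their fold moves by more than 1.5 times. WT 48 h replicate 3 leaned towards the earlier times too, though it stayed closest to its own group (r = 0.990). It correlated with the WT 24 h mean at r = 0.985 and the WT 12 h mean at r = 0.975. For WT 48 h replicate 1 those values were 0.973 and 0.962, and for replicate 2 0.973 and 0.954. WT 48 h replicate 3 stays in the genotype differences given without HET 48 h replicate 3.

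Per length, the receptors covered a wide range of levels. Averaged over the 18 cultures, Npy1r had the highest level of the 9 at 12.9 FPKM, followed by Cnr1 at 9.14 FPKM and Oprm1 at 7.30 FPKM. Oprd1 followed at 3.61 FPKM and Npy2r at 2.77 FPKM. Galr1, Qrfpr and Oprl1 had mean levels of 1.82, 1.77 and 1.18 FPKM, and Grpr was lowest at 0.369 FPKM. The Npy1r mean stood at the percentile 67.0 of all genes in the table, and the Grpr mean at the percentile 16.6.

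The order of levels differed between groups. In WT cultures at 12 h the order was Npy1r, Oprm1, Cnr1, Oprd1, Galr1, Npy2r, Oprl1, Grpr and Qrfpr, and the ranges of Npy1r and Oprm1, Oprm1 and Cnr1, Galr1 and Npy2r, and Grpr and Qrfpr overlapped. In WT cultures at 48 h Qrfpr was the fourth, at 3.16 ± 1.81 FPKM (SD, n = 3), with a range that overlapped those of Oprm1 above it and Oprd1 below it. In HET cultures at 48 h Qrfpr was next to last, at 0.764 ± 0.021 FPKM (SD, n = 3), and overlapped Galr1 above it but not Grpr below it. Npy1r had the highest group mean in all 6 groups, and its range overlapped that of the next receptor in every group except HET 12 h.

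**Figure D1:**
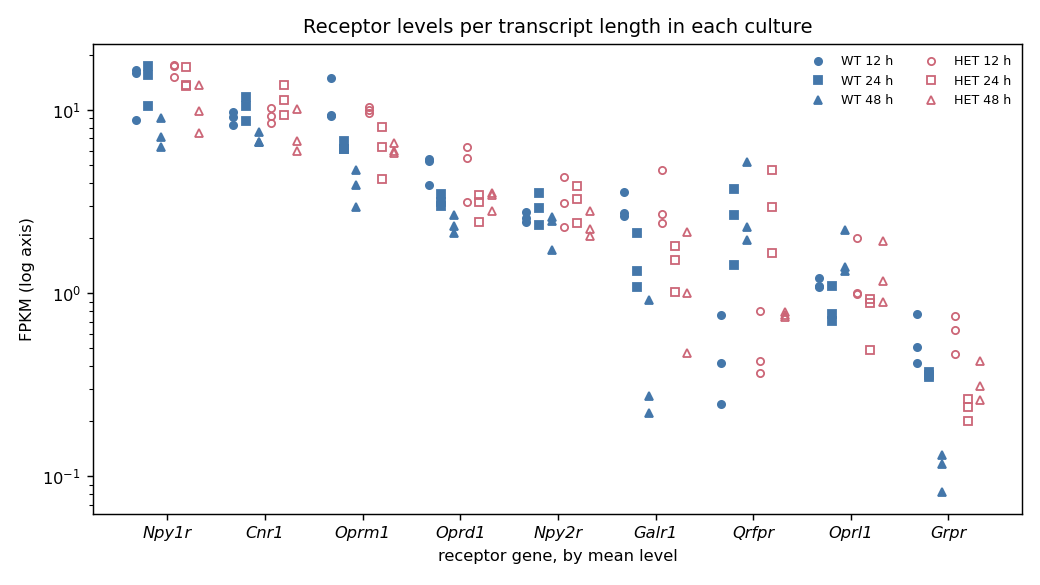
FPKM on a log axis for each receptor, ordered by mean level over all cultures; filled symbols are WT, open symbols HET, and circles, squares and triangles are 12, 24 and 48 h, 1 symbol per culture. Npy1r, Cnr1 and Oprm1 have the highest mean levels, and Galr1, Qrfpr and Grpr spread the most.

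Galr1 and Qrfpr varied most between cultures, with a highest FPKM 21.1 times the lowest in each. For Grpr the highest was 9.42 times the lowest, for Oprm1 5.06 times and for Oprl1 4.53 times. The other 4 receptors varied less, from 2.29 times for Cnr1 to 2.94 times for Oprd1. Membership in 1 of the 6 groups accounted for 90.8% of the spread of Grpr on the log2 scale, 82.6% for Qrfpr and 81.9% for Oprm1. It accounted for 35.8% of the spread of Npy2r, the lowest share of the 9. With 6 groups among 18 cultures, part of any such share arises without a group effect, and that part is not subtracted here.

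Oprm1 encodes the mu opioid receptor, the main target of morphine. Its normalized counts in WT cultures were 1027, 1015 and 1637 at 12 h, 673, 674 and 740 at 24 h, and 425, 323 and 517 at 48 h. The HET cultures had 1061, 1138 and 1096 at 12 h, 686, 889 and 461 at 24 h, and 642, 655 and 725 at 48 h. The WT values at the 3 times did not overlap, each time lying below the one before. In HET cultures both later times lay below 12 h, while the 24 h and 48 h values overlapped, and the 48 h cultures lay above all 3 WT cultures of that time.

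Oprd1 encodes the delta opioid receptor, which responds to enkephalins. In WT cultures it had 908, 879 and 648 normalized counts at 12 h, 524, 579 and 497 at 24 h, and 448, 386 and 357 at 48 h. In HET cultures the values were 1051, 917 and 527 at 12 h, 410, 572 and 525 at 24 h, and 589, 472 and 571 at 48 h. The WT times again lay below one another without overlap. The HET times all overlapped, since the third 12 h culture lay within the range of the later ones, and at 48 h the lowest HET value lay above the highest WT value.

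Oprl1 encodes the receptor for nociceptin. In WT cultures its normalized counts were 134, 137 and 150 at 12 h, 88.0, 96.0 and 137 at 24 h, and 276, 174 and 164 at 48 h. In HET cultures they were 123, 250 and 124, then 60.9, 115 and 110, then 240, 146 and 111. All WT cultures at 48 h lay above those of both earlier times. The genotypes overlapped at every time, and the second HET culture at 12 h stood well above the other 2.

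Cnr1 encodes the CB1 cannabinoid receptor. Its WT normalized counts were 2361, 2210 and 1991 at 12 h, 2843, 2522 and 2111 at 24 h, and 1837, 1623 and 1621 at 48 h. Its HET values were 2467, 2244 and 2041 at 12 h, 3290, 2723 and 2275 at 24 h, and 1435, 1631 and 2444 at 48 h. The WT cultures at 48 h were below all earlier ones. The third HET culture at 48 h, the library that stood apart, lay within the range of the earlier HET cultures, while the other 2 lay below that range.

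Npy1r encodes the Y1 receptor for neuropeptide Y. The WT cultures had 1096, 1994 and 2078 normalized counts at 12 h, 1313, 1949 and 2162 at 24 h, and 886, 782 and 1130 at 48 h. The HET cultures had 2184, 1888 and 2191 at 12 h, 1681, 1718 and 2133 at 24 h, and 933, 1238 and 1704 at 48 h. The WT 12 h and 48 h ranges overlapped only in that the first 12 h culture (1096) lay below the third 48 h culture (1130). Npy2r, the Y2 receptor found on nerve terminals, ranged from 239 to 495 in WT and from 287 to 603 in HET cultures, and the groups overlapped between all times and genotypes.

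Galr1 encodes a galanin receptor. Its WT normalized counts were 316, 325 and 426 at 12 h, 158, 128 and 254 at 24 h, and 32.6, 26.6 and 110 at 48 h. Its HET values were 287, 559 and 323 at 12 h, 120, 216 and 180 at 24 h, and 56.4, 119 and 257 at 48 h. In WT cultures the 3 times did not overlap. At 48 h the replicates differed widely within both genotypes, replicate 3 was the highest of each, and the genotypes overlapped.

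Grpr had few normalized counts throughout. The WT values were 52.7, 79.6 and 42.8 at 12 h, 36.1, 37.2 and 38.6 at 24 h, and 12.2, 13.5 and 8.46 at 48 h. The HET values were 48.2, 77.4 and 64.8 at 12 h, 24.6, 27.3 and 20.7 at 24 h, and 27.1, 32.4 and 44.1 at 48 h. WT cultures lay above HET cultures at 24 h and below them at 48 h, without overlap at either time.

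Qrfpr encodes the receptor for the RFamide peptide QRFP. In WT cultures it had 18.5, 31.1 and 57.1 normalized counts at 12 h, 107, 278 and 199 at 24 h, and 171, 391 and 146 at 48 h. In HET cultures it had 31.8, 27.5 and 59.5 at 12 h, 354, 124 and 220 at 24 h, and 55.6, 58.8 and 56.9 at 48 h. Both genotypes were higher at 24 h than at 12 h, without overlap. At 48 h the 3 HET cultures lay close together within the range of the 12 h cultures, and all 3 WT cultures lay above them.

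**Figure D2:**
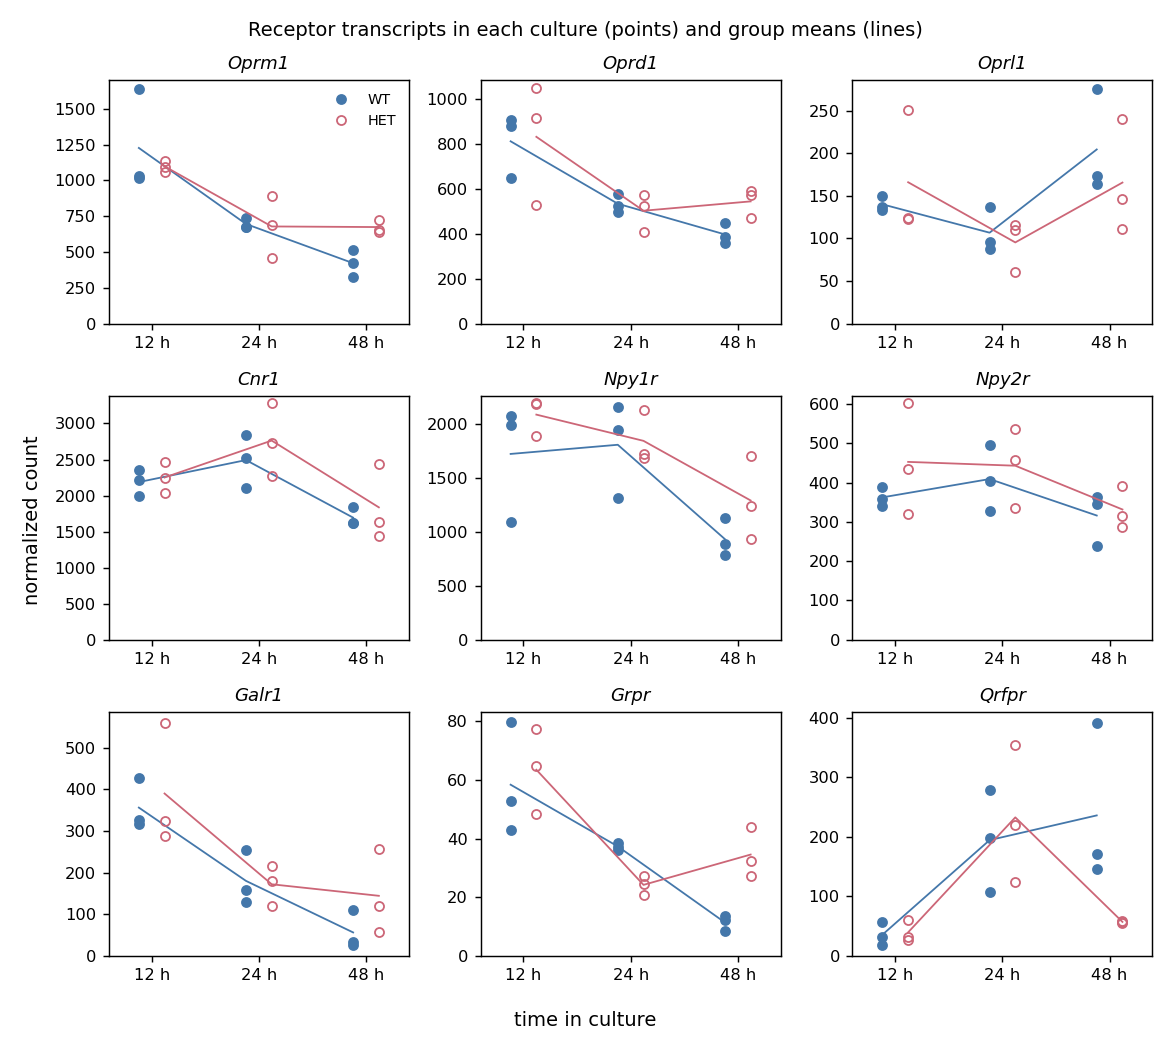
Normalized counts (y axis, from 0) of each receptor at 12, 24 and 48 h in culture (x axis); filled points are WT cultures, open points HET cultures, and lines join group means of 3 cultures. At 48 h the HET points lie above the WT points for Oprm1, Oprd1 and Grpr and below them for Qrfpr.

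Differences between groups were estimated with limma on log2(normalized count + 1) over the whole table. A gene is said here to have risen or fallen where its p-value, adjusted by the Benjamini-Hochberg method over all 17198 genes, was below 0.05. Beside each count of receptors stands the share of all genes in the table that passed the same threshold, and nothing is read from the receptors' counts, since the list may rest on these same contrasts. All log2 differences below are given with their standard error (SE).

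From 12 to 48 h in WT cultures 6 of the 9 receptors passed the threshold, against 47.1% of all genes. Galr1 fell by 2.92 ± 0.51 on the log2 scale, to 15.8% of its 12 h mean, and by 3.54 ± 0.47 without WT 48 h replicate 3. Grpr fell by 2.24 ± 0.29, to 19.5%, and Oprm1 fell by 1.53 ± 0.21, to 34.4%. Oprd1 fell by 1.02 ± 0.21 and Npy1r fell by 0.84 ± 0.25. Qrfpr rose by 2.70 ± 0.47, to 6.64 times its 12 h mean.

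Those 5 lower receptors compare with 17.1% of all genes called lower and the 1 higher receptor with 30.0% called higher. On the plain adjusted columns, the authors' other per-sample values, 21.9% were called lower and 24.3% higher, as that scaling moved the median log2 difference of all genes from 0.11 to 0.01. The directions of the 9 receptors were the same under both scalings. The 3 receptors below the threshold were Oprl1 (0.50 ± 0.33), Cnr1 (-0.37 ± 0.17) and Npy2r (-0.22 ± 0.23). The median log2 difference of the 9 was -0.84, and 0.11 over all genes.

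In HET cultures the same interval gave 2 of 9 receptors past the threshold, against 14.2% of all genes. Oprm1 fell by 0.70 ± 0.21 and Galr1 fell by 1.63 ± 0.51. Values for the others were -0.86 ± 0.29 for Grpr, -0.73 ± 0.25 for Npy1r, -0.56 ± 0.21 for Oprd1, -0.41 ± 0.23 for Npy2r and -0.33 ± 0.17 for Cnr1. Qrfpr differed by 0.60 ± 0.47 and Oprl1 by 0.01 ± 0.33. Without HET 48 h replicate 3 the count was 5 of 9, against 28.4% of all genes: Oprm1 (-0.76), Galr1 (-2.17), Grpr (-1.05), Npy1r (-0.95) and Cnr1 (-0.55). Oprd1 (-0.60), Npy2r (-0.54), Qrfpr (0.60) and Oprl1 (0.26) did not pass without it. The count was 0 without HET 48 h replicate 1 or 2 or HET 12 h replicate 2 (0% of all genes in each case), without HET 12 h replicate 1 (6.53%) or without WT 24 h replicate 1 (11.4%). It was 1 without HET 12 h replicate 5 (10.9%) or HET 24 h replicate 5 (13.0%).

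**Figure D3:**
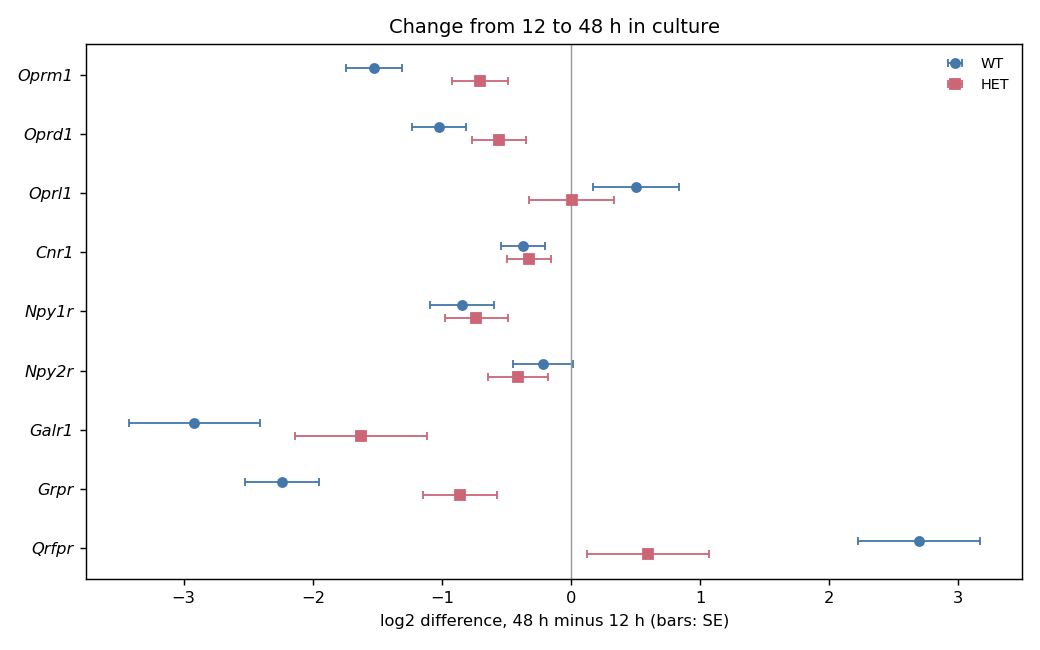
Log2 difference between 48 h and 12 h (x axis) for each receptor in WT cultures (circles) and HET cultures (squares); bars are SE from limma. Galr1, Grpr and Oprm1 lie furthest below 0 in WT cultures, and Qrfpr lies at 2.70 in WT and 0.60 in HET cultures.

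The interval was also split at 24 h. From 12 to 24 h in WT cultures 1 of 9 passed, against 3.62% of all genes: Qrfpr rose by 2.46 ± 0.47. That count was 0 without any single WT 24 h culture or WT 12 h replicate 2 (0% of all genes in each case) and without WT 12 h replicate 1 (1.15%). It was 2 without WT 48 h replicate 2 (4.44%), HET 24 h replicate 2 (3.46%), HET 24 h replicate 5 (2.76%) or HET 48 h replicate 3 (6.51%). In HET cultures 4 of 9 passed, against 18.9%: Qrfpr rose by 2.48 ± 0.47, Grpr fell by 1.34 ± 0.29, Oprm1 fell by 0.74 ± 0.21 and Oprd1 fell by 0.68 ± 0.21. The HET count was 2 without HET 12 h replicate 2 (6.63% of all genes), HET 24 h replicate 1 (10.9%) or HET 24 h replicate 5 (10.7%). Oprm1 had a WT difference of -0.78 ± 0.21 over this interval, which did not pass.

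From 24 to 48 h in WT cultures 6 of 9 passed, against 27.7% of all genes. Galr1 fell by 1.89 ± 0.51, Grpr fell by 1.65 ± 0.29, Npy1r fell by 0.94 ± 0.25, Oprm1 fell by 0.74 ± 0.21 and Cnr1 fell by 0.55 ± 0.17, while Oprl1 rose by 0.92 ± 0.33. Oprl1 did not pass on the plain adjusted columns (0.85 ± 0.33), after quantile normalization (0.71 ± 0.30), or when any 1 of 11 single cultures was left out. Without WT 48 h replicate 3 Galr1 fell by 2.51 ± 0.47. The count dropped to 1 without WT 48 h replicate 2 (13.4% of all genes) and to 2 without WT 24 h replicate 2 (13.0%). In HET cultures over this interval 1 of 9 passed, against 2.49%: Qrfpr fell by 1.88 ± 0.47, to 24.5% of its 24 h mean. Qrfpr no longer passed when either of the other 2 HET 48 h cultures, or any of 8 cultures of other groups, was left out, with 0% to 2.20% of all genes called. Without HET 48 h replicate 3 Qrfpr fell by 1.88 ± 0.54. Cnr1 passed there as well, with a difference of -0.84, so that 2 of 9 passed, against 14.9% of all genes.

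The WT and HET intervals were separate comparisons within the same fit, and the difference between them was also estimated. For the change from 12 to 48 h, HET minus WT was -2.10 ± 0.67 for Qrfpr, 1.38 ± 0.40 for Grpr, 1.29 ± 0.72 for Galr1 and 0.82 ± 0.30 for Oprm1. It was 0.46 ± 0.30 for Oprd1, -0.50 ± 0.47 for Oprl1, -0.19 ± 0.33 for Npy2r, 0.11 ± 0.35 for Npy1r and 0.04 ± 0.24 for Cnr1. None of the 9 passed the threshold, as was the case for all 17198 genes (0% by limma, with 1534 genes at an unadjusted p under 0.05).

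Between genotypes at 12 h, 0 of 9 receptors passed, against 0.00581% of all genes, and log2 differences ran from -0.12 ± 0.21 for Oprm1 to 0.33 ± 0.25 for Npy1r. At 24 h, 0 of 9 passed, again against 0.00581%. There Grpr was the 1 receptor whose groups did not overlap, lower in HET by 0.61 on the log2 scale (-0.61 ± 0.29), and 5.60% of all genes had groups without overlap. The other 8 lay between -0.19 ± 0.33 for Oprl1 and 0.24 ± 0.47 for Qrfpr.

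Averaged over the 3 times, 0 of 9 passed, against 0.0174% of all genes, and differences ran from -0.48 ± 0.27 for Qrfpr to 0.47 ± 0.29 for Galr1. Without HET 48 h replicate 3 they ran from -0.48 ± 0.29 for Qrfpr to 0.29 ± 0.27 for Galr1.

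At 48 h Qrfpr was lower in HET cultures, at 24.2% of the WT mean (log2 difference -1.89 ± 0.47). Grpr was higher at 3.03 times the WT mean (1.52 ± 0.29), and Galr1 at 2.56 times (1.37 ± 0.51). Oprm1 was higher at 1.60 times (0.70 ± 0.21) and Oprd1 at 1.37 times (0.45 ± 0.21). The remaining differences were 0.44 ± 0.25 for Npy1r, 0.08 ± 0.17 for Cnr1, 0.08 ± 0.23 for Npy2r and -0.34 ± 0.33 for Oprl1.

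The groups did not overlap for 4 of the 9 receptors, namely Oprm1, Oprd1, Grpr and Qrfpr, against 24.0% of all genes. In the limma fit 0 of 9 passed the threshold at 48 h, as did 0% of all genes, with 3782 genes at an unadjusted p under 0.05. With the replicate number as a block, since same-numbered cultures deviated together at this time, 5 of 9 passed, against 12.3% of all genes: Oprm1, Oprd1, Galr1 and Grpr were higher and Qrfpr lower in HET cultures. That fit blocked the numbers at 12 and 24 h too, where they were not taken as paired, and its SE rests on all 3 times. Without the block, leaving out WT 48 h replicate 3 gave 4 of 9 (5.41% of all genes) and leaving out HET 48 h replicate 1 gave 2 (4.28%). Leaving out HET 48 h replicate 2 (2.98%), HET 12 h replicate 2 (0.983%) or HET 24 h replicate 1 (1.09%) gave 1 each.

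In the authors' deposited table, 3 of the 9 receptors had a false discovery rate under 0.05 at 48 h, against 5.98% of all genes. The authors' deposited table gives log2 fold changes of 0.68 for Oprm1, 1.59 for Grpr and -2.05 for Qrfpr.

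Without HET 48 h replicate 3, the 48 h differences of Qrfpr (-1.88 ± 0.54), Grpr (1.33 ± 0.31), Oprm1 (0.65 ± 0.24) and Oprd1 (0.42 ± 0.24) were close to those with it, and 0 of 9 passed, against 0% of all genes. Galr1 dropped to 0.83 ± 0.49, whereas without WT 48 h replicate 3 it was 1.99 ± 0.47. Without the HET library Npy1r dropped to 0.22 ± 0.25 and Oprl1 moved to -0.09 ± 0.35. Cnr1 (-0.14 ± 0.15) and Npy2r (-0.05 ± 0.25) changed sign, each within its SE of 0. For the difference in the 12 to 48 h change, Npy1r (-0.11 ± 0.34) and Cnr1 (-0.18 ± 0.20) turned negative and Galr1 dropped to 0.75 ± 0.66, against 1.91 ± 0.63 without WT 48 h replicate 3. Without the HET library that difference was -2.10 ± 0.72 for Qrfpr, 1.19 ± 0.42 for Grpr and 0.77 ± 0.33 for Oprm1. It was 0.42 ± 0.32 for Oprd1, -0.32 ± 0.34 for Npy2r and -0.25 ± 0.47 for Oprl1.

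**Figure D4:**
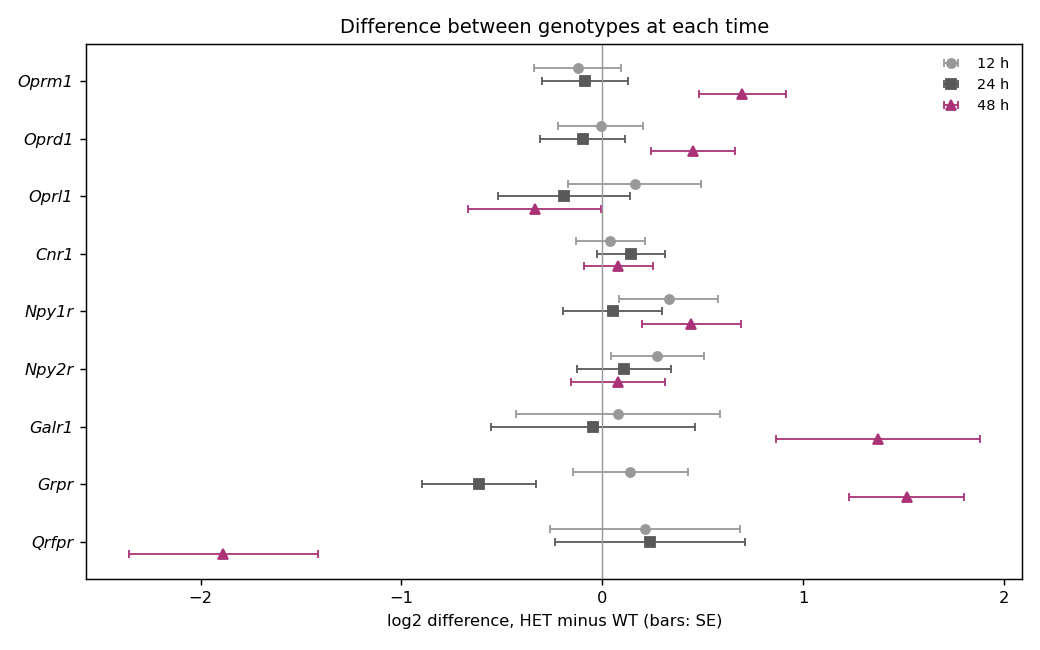
Log2 difference between HET and WT cultures (x axis) for each receptor at 12 h (circles), 24 h (squares) and 48 h (triangles); bars are SE from limma. At 48 h Grpr and Galr1 lie above 1 and Qrfpr lies at -1.89, and the 12 h values of all 9 lie between -0.12 and 0.33.

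Levels in bulk RNA from mixed neurons depend on which neurons are present and on the RNA per cell, and fewer cells of a type cannot be told apart from less RNA per cell. Of 6 markers of non-peptidergic nociceptors, 5 fell from 12 to 48 h in WT cultures (median log2 difference -3.07), against 17.1% of all genes. In HET cultures 3 fell (median -1.54), against 3.62%. The summed level of these markers at 12 h was 162 to 271 FPKM in WT and 239 to 339 FPKM in HET cultures, with overlap. At 48 h it was 141 to 159 FPKM in WT and 166 to 269 FPKM in HET cultures, without overlap. Between genotypes 0 of 6 passed the threshold in the limma fit, as did 0% of all genes. With the replicate block 5 of 6 were higher in HET cultures, against 5.04% of all genes. Their median genotype difference at 48 h was 1.79, and 1.18 without HET 48 h replicate 3. Markers of peptidergic nociceptors, such as Calca and Tac1, fell for 3 of 5 in both genotypes from 12 to 48 h, against the same shares of all genes as above. In WT cultures 1 rose, against 30.0% of all genes. Sums of the peptidergic markers at 48 h overlapped, at 973 to 1186 FPKM in WT and 953 to 1648 FPKM in HET cultures.

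Among the 5 markers of Nppb/Sst neurons 1 rose and 3 fell from 12 to 48 h in WT cultures, against 30.0% and 17.1% of all genes. The sum of these markers lay at 55.7 to 66.8 FPKM at 12 h and at 170 to 291 FPKM at 48 h. In HET cultures the sum at 48 h was 104 to 161 FPKM. Schwann cell and satellite glia markers summed to 563 to 822 FPKM at 12 h and 243 to 291 FPKM at 48 h in WT cultures, and to 559 to 849 and 261 to 361 FPKM in HET cultures. Fibroblast markers summed to 37.7 to 78.8 FPKM at 12 h and 90.7 to 134 FPKM at 48 h in WT cultures, and 44.8 to 67.3 and 80.2 to 129 FPKM in HET cultures. Macrophage markers, 4 of 5 measured, summed to 13.8 to 21.2 FPKM at 12 h and 35.9 to 73.7 FPKM at 48 h in WT cultures, and to 12.3 to 17.6 and 21.3 to 31.6 FPKM in HET cultures, so that the genotypes did not overlap at 48 h. Endothelial markers summed to 56.4 to 72.9 and 26.6 to 38.6 FPKM in WT, and 37.6 to 59.7 and 32.3 to 45.3 FPKM in HET cultures at those times. Pericyte and muscle markers summed to 68.3 to 108 and 120 to 255 FPKM in WT, and 71.4 to 79.2 and 73.3 to 142 FPKM in HET cultures. Neutrophil and red cell markers, 3 of 5 measured, summed to 5.58 to 219 FPKM at 12 h and 3.65 to 4.77 FPKM at 48 h in WT cultures, and to 87.2 to 219 and 5.59 to 63.6 FPKM in HET cultures. Markers of large-diameter neurons summed to 799 to 1382 FPKM at 12 h and 650 to 914 FPKM at 48 h in WT cultures. In HET cultures those sums were 780 to 1181 and 702 to 758 FPKM. C-low-threshold neuron markers were all measured, 4 genes listed under 5 symbols. In WT cultures they summed to 82.8 to 123, 57.2 to 78.8 and 120 to 147 FPKM at 12, 24 and 48 h. In HET cultures they summed to 97.8 to 125, 60.9 to 73.8 and 67.1 to 162 FPKM. No measured marker of these lists was at 0 in any culture. The part of these markers in the receptor differences was not tested.

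Peptide ligands of these receptors were measured for 9 of 15 listed genes. Npy, which encodes neuropeptide Y, had 7.43, 24.4 and 34.8 normalized counts in WT cultures at 12 h and 887, 1297 and 415 at 48 h. In HET cultures it had 10.1, 4.07 and 22.1 at 12 h and 229, 155 and 29.5 at 48 h. Npy rose by 5.31 ± 0.72 on the log2 scale in WT cultures (limma, Benjamini-Hochberg adjusted p = 5.58e-05) and by 3.24 ± 0.72 in HET cultures (limma adjusted p = 0.0154). Without HET 48 h replicate 3, the lowest HET culture for Npy at 48 h, the HET rise was 4.12 ± 0.66 (limma adjusted p = 0.000549). The receptor genes Npy1r and Npy2r had differences of -0.84 and -0.22 in WT cultures over the same interval.

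At 48 h Npy differed between genotypes by -2.93 ± 0.72 and did not pass (limma adjusted p = 0.0543), although it did with replicates blocked (limma adjusted p = 0.00278). The 3 HET cultures lay below the 3 WT cultures without overlap. Without HET 48 h replicate 3 the genotype difference was -2.05 ± 0.66 (limma adjusted p = 0.251). The difference between genotypes in the Npy change from 12 to 48 h was -2.07 ± 1.02 (limma adjusted p = 0.558).

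Opioid peptide precursors moved apart in WT cultures from 12 to 48 h. Penk, the enkephalin precursor, rose by 1.19 ± 0.36 (limma adjusted p = 0.0128), with a mean of 427 ± 149 normalized counts (SD, n = 3) at 12 h and 955 ± 247 at 48 h. Pomc, the precursor of beta-endorphin, rose by 0.86 ± 0.28 (limma adjusted p = 0.0178). Pnoc, the nociceptin precursor, fell by 1.24 ± 0.41 (limma adjusted p = 0.0196), from 18.6 ± 4.7 to 7.29 ± 1.72 normalized counts (SD, n = 3). Pdyn, the dynorphin precursor, had a difference of -0.37 ± 0.49 (limma adjusted p = 0.555). In HET cultures the differences were 0.82 ± 0.36 for Penk, 0.35 ± 0.28 for Pomc and -0.98 ± 0.41 for Pnoc, and none of these passed the threshold. Without HET 48 h replicate 3 they were 1.30 ± 0.32 for Penk (limma adjusted p = 0.00628), 0.39 ± 0.32 for Pomc and -1.24 ± 0.45 for Pnoc (limma adjusted p = 0.0484), so that Penk and Pnoc passed. The HET 48 h cultures had 849, 1258 and 379 normalized counts of Penk.

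Gal, which encodes galanin, the ligand of Galr1, had a log2 difference of 0.26 ± 0.24 in WT cultures from 12 to 48 h (limma adjusted p = 0.406) and -0.16 ± 0.24 in HET cultures (limma adjusted p = 0.680). Grp, the ligand of Grpr, lay between 15.6 and 49.0 normalized counts in all 18 cultures, with a WT difference of -0.32 ± 0.41 (limma adjusted p = 0.542). Nmb, which encodes the related bombesin-like peptide neuromedin B, fell by 1.47 ± 0.26 in WT cultures (limma adjusted p = 0.000283) and by 0.96 ± 0.26 in HET cultures (limma adjusted p = 0.0250). At 48 h Nmb differed between genotypes by 0.82 ± 0.26 (limma adjusted p = 0.0853, or 0.00484 when replicates were blocked), without overlap between the groups. The HET cultures had 2262, 2116 and 5002 normalized counts of Nmb at 48 h, the last in the library that stood apart. Without that library the Nmb difference between genotypes was 0.42 ± 0.19 (limma adjusted p = 0.411) and the HET fall was 1.36 ± 0.19 (limma adjusted p = 0.00024). Gal (-0.17 ± 0.28) and Grp (-0.39 ± 0.46) did not pass in HET cultures without it. Npff, the neuropeptide FF precursor, had a WT difference of -1.19 ± 0.53 (limma adjusted p = 0.0779).

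**Figure D5:**
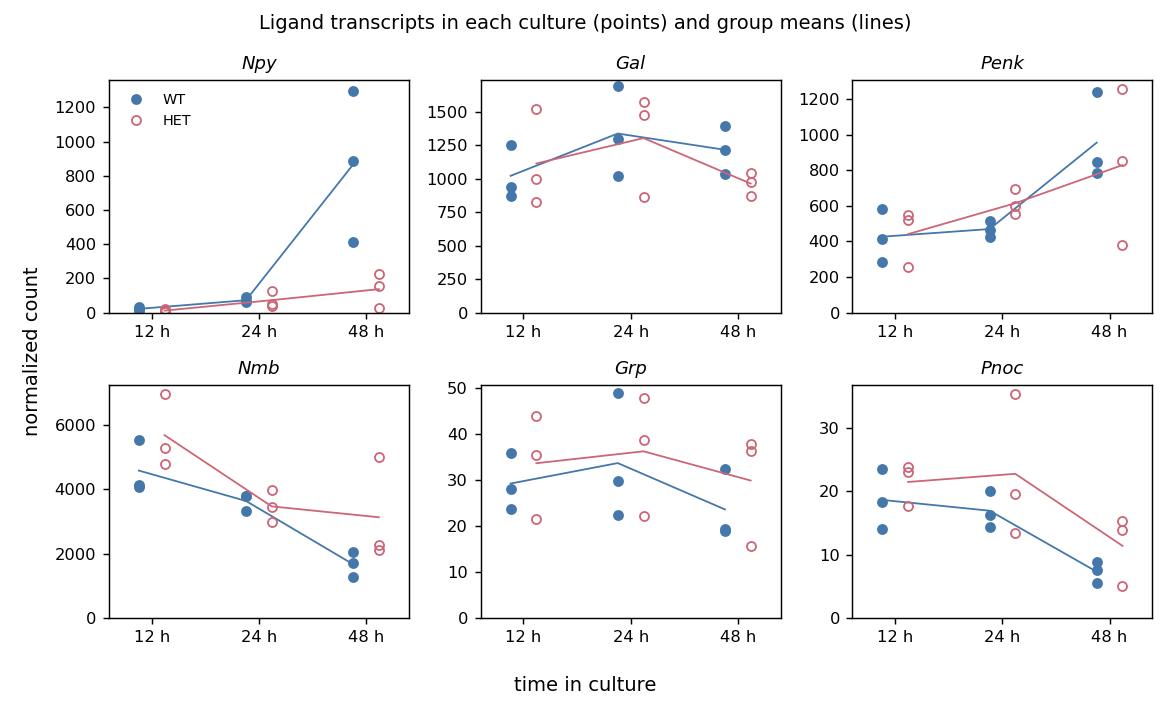
Normalized counts (y axis, from 0) of 6 peptide ligand genes at 12, 24 and 48 h in culture (x axis); filled points are WT cultures, open points HET cultures, and lines join group means of 3 cultures. Npy at 48 h lies between 415 and 1297 in WT cultures and between 29.5 and 229 in HET cultures, and Nmb falls with time in both genotypes.

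All 11 listed enzymes of endocannabinoid synthesis and breakdown, the lipids that act on CB1, were measured. From 12 to 48 h in WT cultures 3 rose and 3 fell, against 30.0% and 17.1% of all genes. Mgll, the lipase that degrades 2-arachidonoylglycerol, fell by 0.98 ± 0.15 in WT (limma adjusted p = 0.000103) and by 0.65 ± 0.15 in HET cultures (limma adjusted p = 0.0159). Daglb, which makes the same lipid, rose by 0.61 ± 0.10 in WT cultures (limma adjusted p = 0.000211), and Napepld, an enzyme of anandamide synthesis, rose by 0.61 ± 0.16 (limma adjusted p = 0.00519). Plcb1, a phospholipase C, fell by 0.88 ± 0.13 in WT cultures (limma adjusted p = 9.4e-05). Faah, which degrades anandamide, fell by 0.51 ± 0.18 between 24 and 48 h in WT cultures (limma adjusted p = 0.0437).

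Of 17 listed relatives and partners of the 9 receptors, 11 were measured. The kappa opioid receptor gene Oprk1 averaged 34.0 ± 8.9 normalized counts in WT cultures at 12 h and 23.0 ± 1.1 at 48 h (SD, n = 3), a log2 difference of -0.51 ± 0.52. The CB2 receptor gene Cnr2 averaged 17.1 ± 2.7 and 11.3 ± 4.7, and Npy5r 16.2 ± 13.0 and 11.9 ± 7.8 (SD, n = 3). From 12 to 48 h in WT cultures 1 of the 11 passed, against 47.1% of all genes. This was Cnrip1, whose product binds CB1, with a rise of 0.48 ± 0.09 (limma adjusted p = 0.000359). Cnrip1 rose by 0.27 ± 0.09 in HET cultures (limma adjusted p = 0.0487). Apart from Cnrip1 and Ogfr, WT means at 12 and 48 h lay between 3.87 (Galr3, 12 h) and 34.0 normalized counts (Oprk1, 12 h). Whether such low levels kept these genes from passing was not tested. Npffr1, a neuropeptide FF receptor, rose by 1.41 ± 0.43 in HET cultures from 2.87 ± 1.65 to 8.68 ± 1.95 normalized counts (SD, n = 3, limma adjusted p = 0.0387), and did not pass without HET 48 h replicate 3 (1.27 ± 0.49, limma adjusted p = 0.0639).

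Among 74 measured receptors for other neuromodulators, 24 fell and 11 rose from 12 to 48 h in WT cultures, with a median log2 difference of -0.43, against 17.1% of all genes called lower and 30.0% higher. In HET cultures 8 fell and 2 rose, with a median of -0.16, against 3.62% and 10.6% of all genes. The HET counts were 11 and 1 on the plain adjusted columns, and 12 and 6 without HET 48 h replicate 3. The alpha-2A adrenergic receptor gene Adra2a rose by 3.25 ± 0.42 in WT (limma adjusted p = 4.33e-05) and by 1.49 ± 0.42 in HET cultures (limma adjusted p = 0.0308). Cckbr, a cholecystokinin receptor gene, rose by 2.07 ± 0.39 in WT cultures (limma adjusted p = 0.00049). The angiotensin receptor gene Agtr1a fell by 2.62 ± 0.50 (limma adjusted p = 0.000522), and Grm8, a metabotropic glutamate receptor gene, fell by 1.77 ± 0.25 in WT (limma adjusted p = 7.39e-05) and by 0.95 ± 0.25 in HET cultures (limma adjusted p = 0.0249). Between genotypes at 48 h 0 of the 74 passed in the limma fit, and with the replicate block 13 were higher and 8 lower in HET cultures, against 5.04% and 7.29% of all genes.

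Of 69 measured genes of G protein signalling, 16 rose and 21 fell from 12 to 48 h in WT cultures, with a median log2 difference of -0.10, against 30.0% and 17.1% of all genes. Gnao1, the alpha subunit of the inhibitory protein Go, fell by 1.58 ± 0.21 in WT (limma adjusted p = 4.6e-05) and by 0.65 ± 0.21 in HET cultures (limma adjusted p = 0.0455). Rgs8 and Rgs10, regulators that speed the shut-off of G protein alpha subunits, fell by 1.97 ± 0.41 (limma adjusted p = 0.001) and by 1.59 ± 0.27 (limma adjusted p = 0.000234) in WT cultures. Rgs19, another such regulator, rose by 1.05 ± 0.19 in WT (limma adjusted p = 0.000404) and by 0.69 ± 0.19 in HET cultures (limma adjusted p = 0.0288). Kcnj3, a subunit of the potassium channel opened by G protein beta-gamma subunits, fell by 0.89 ± 0.27 in HET cultures (limma adjusted p = 0.0396). At 48 h 0 of the 69 passed between genotypes in the limma fit, and with the replicate block 11 were higher and 7 lower in HET cultures, beside the same shares of all genes as above.

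The genes whose log2 values ran most like each receptor over the 18 cultures were found among 16135 genes with a mean of at least 10 normalized counts. These correlations describe cultures that share their groups and their authors' adjustment. For Galr1 the closest were Dnajc27 (Pearson's r = 0.978), Tmem176a (0.969) and the sodium channel gene Scn4a (0.967). For Oprm1 they were the potassium channel gene Kcnh7 (0.969), the calcium/calmodulin kinase gene Camk4 (0.959) and the calcium channel subunit gene Cacnb4 (0.946). For Oprd1 they were Sybu (0.950), Asb13 (0.949) and Grm8 (0.943).

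For Npy1r the closest genes were Sectm1b (0.956), Rnf122 (0.922) and Rasef (0.921), and for Cnr1 Dusp5 (0.941) and Taf7 (0.929) are given. For Qrfpr they were the reticulon gene Rtn4 (0.941), the cortactin gene Cttn (0.940) and Fastkd1 (0.939), and for Grpr Wfdc2 (0.916), Sfrp5 (0.916) and Inadl (0.915). For Oprl1 they were AW549542 (0.910), the glutamate receptor gene Gria2 (0.899) and Fbxo21 (0.897). Npy2r had the lowest such values, with Actr3b (0.891), Zfp831 (0.884) and Klc1 (0.866). No receptor of the list was among the 3 closest genes of another.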

How the data were processed

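RNA was sequenced from 18 DRG cultures. Per the submitters' processing notes, CASAVA 1.8.2 and edgeR were used with build mm10; the aligner, counter and annotation are not given in the sources used here. The authors deposited normalized counts, a signal scaled to nearly equal totals per sample. The authors also deposited a plain adjusted signal for each sample, without whole numbers and with unequal totals. The log2 fold changes of their own comparisons were computed by the authors, per the file headers. The deposited FPKM values are relative to transcript length and library size, per the file headers. The FDR, an adjusted p-value, was likewise computed by the authors. Of 17 possible directions among samples, 2 were missing from the plain adjusted values on the log scale. Depth is unknown, so no interval or floor was computed.

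Because the values were not counts, limma 3.58.1 (R 4.3.3) was fitted to log2(value + 1) of the normalized counts, which understates changes of low genes, over all 17198 genes and 18 samples, with 1 coefficient per group and a trend of the variance with the mean, leaving 12 residual degrees of freedom and 4.97 from the prior. A minimum mean of 1 removed 0 genes. Each of 11 comparisons had its own Benjamini-Hochberg adjustment, with a threshold of 0.05. The script was tested on simulated data. The receptors, gene lists and tests were chosen with earlier results of these data known.

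Groups and replicate numbers came from the sample titles. Deviations from group means of same-numbered samples correlated in all 3 pairs between genotypes at 48 h (r from 0.21 to 0.46) and were taken as paired there, which the labels do not state. At 12 h (0.03 to 0.19) and 24 h (-0.21 to 0.26) they were not. Genes other than the receptors were eligible to be named by rule, and the text describes a part of them: up to 3 higher and 3 lower per list and comparison, past the threshold and without overlap between groups, any measured ligand or related receptor, and the 3 genes most correlated with each receptor. P-values measure the spread between these cultures that is left in the deposited values. The main fit did not take the 2 missing directions into account, so its SE and p-values may be too small. Figures were drawn with matplotlib 3.10.9.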

Additional observations from a re-analysis of the deposited data

How the results depend on the processing

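Alternatives were a replicate block, a pseudocount of 0.1, a minimum mean of 5 or none, the plain adjusted columns, quantile normalization, only the groups compared, the missing directions as covariates, the block with those directions, and leaving out each culture. Of 2664 log2 differences of single receptors recomputed, 2636 moved by less than the spread between replicates and 0 reversed as called values. Many of these could not move. The filters, a fit to only the groups compared, and leaving out a culture outside the comparison cannot change a receptor's log2 difference. Nor can the block between genotypes, so this share is no measure of stability. Of 296 recomputed counts of receptors past the threshold, 241 stayed within 1.5 times the reported count. The share of all genes called stands in parentheses after each count that follows. At 48 h between genotypes the count was 0 as reported, 5 with the block (12.3%), 1 with quantile normalization, namely Grpr (1.60%), and 4 with the block and directions (11.4%). From 12 to 24 h in WT it was 1 as reported, 3 with the block (9.43%), 3 with only the groups compared (4.88%) and 5 with the block and directions (14.2%). From 24 to 48 h in WT it was 6, and 3 with the block and directions (7.53%). From 12 to 24 h in HET it was 4, and 7 with the block and directions (34.3%). From 12 to 48 h in HET it was 2, against 6 with the block (30.8%), 4 on the plain adjusted columns (11.2%), 0 with only the groups compared (0%, 6 samples fitted), 1 with the directions (13.0%) and 6 with both (29.1%). From 24 to 48 h in HET it was 1, against 4 with the block (16.8%), 0 with only the groups compared (0%), 2 with the directions (4.89%) and 4 with both (12.0%). The cause of these moves was not tested.

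Leaving out 1 culture, with the 2 cultures left in its group taken to vary like the other groups, gave 0 to 4 receptors between genotypes at 48 h. It gave 0 to 2 from 12 to 24 h, 5 to 7 from 12 to 48 h and 1 to 6 from 24 to 48 h in WT. It gave 2 to 4 from 12 to 24 h and 0 to 5 from 12 to 48 h in HET. From 24 to 48 h in HET it gave 0 to 2, with 0 without WT 12 h replicate 2, WT 24 h replicate 1 or 5, WT 48 h replicate 1, HET 12 h or HET 24 h replicate 1 or 5, or HET 48 h replicate 1 or 2. The other cultures that moved a count by more than 1.5 times are named beside it above. Counts at 12 h, at 24 h, averaged over times and for the difference in change were 0 under every alternative run.

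The replicate block pairs samples only at 48 h between genotypes. Elsewhere it treats a shared number as a pair, and comparisons with 48 h share only numbers 1 and 2, so the other number drops out. It moved the count of all genes past the threshold to 17 at 12 h, 0 at 24 h, 553 averaged over times, 1621 from 12 to 24 h in WT, 4498 from 12 to 24 h, 5301 from 12 to 48 h and 2888 from 24 to 48 h in HET. DESeq2 was not run because the values are not counts.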
